A study of Mus musculus musculus x Mus musculus castaneus with 12 samples.

Results

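The pyruvate dehydrogenase complex of mouse ES cells was followed through 10 genes: the subunit genes *Pdha1*, *Pdhb*, *Dlat*, *Pdhx* and *Dld*, the kinase genes *Pdk1*, *Pdk2*, *Pdk3* and *Pdk4*, and the phosphatase gene *Pdp1*. They were chosen by symbol from the 24346 genes counted in each of the 12 RNA-seq samples, and all 10 were found. The samples are F1 hybrid ES cells, pluripotent cells with 1 chromosome set from BL6 (*Mus musculus*) and 1 from *cast* (*Mus castaneus*). The mother is BL6 in the BC cross and *cast* in the CB cross. The groups were BC male wt (n = 2), the BC male exonic KO clones ΔE1 and ΔE3, the BC male promoter KO clone ΔP4, BC female wt (n = 2), CB male wt (n = 2), the CB male exonic KO clones ΔE2.5 and ΔE2.7, and the CB male promoter KO clone ΔP2.1. All KO clones are edited in *Kdm6a*, an X-linked gene for a histone demethylase. The exonic BC clones have in addition lost *Pdha1*, which is intact in the other 10 samples. Per the study, their off-target deletion also takes *Map3k15* and part of *Sh3kbp1*. The question was whether the other genes of the complex differ where *Pdha1* is gone.

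Several features limit these groups as models. Per the study's methods, one and the same CRISPR edit gave rise to ΔE1 and ΔE3, so they are subclones and not independent edits. In the fit over 12 samples, p-values rest on the spread within all replicated groups, of which these subclones are only a part. Each promoter KO group is a single clone. The female BC cells are another line than the male ones, so sex and line cannot be told apart. The CB wt line carries an actin-GFP transgene. The cells were grown on inactivated mouse fibroblasts with serum and LIF and were depleted of fibroblasts before RNA was taken. Nothing in the labels places the wt replicates in separate cultures, so p-values measure only the spread between these samples, which may be technical.

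The complex sits in the mitochondrial matrix and turns pyruvate, the end product of glycolysis, into acetyl-CoA for the TCA cycle. E1, a tetramer of the *Pdha1* and *Pdhb* products, decarboxylates pyruvate. E2, the *Dlat* product, forms the core and passes on the acetyl group, the *Pdhx* product tethers E3 to that core, and E3, the *Dld* product, reoxidizes the lipoyl groups and is shared with other dehydrogenases. Pyruvate dehydrogenase kinases phosphorylate serines of the *Pdha1* product and switch the complex off, and pyruvate dehydrogenase phosphatases reverse this. Mouse ES cells are known for high glycolytic flux.

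The kinases act on the protein of the gene that the exonic BC clones lack. The stretch of *Pdha1* that codes for 2 of the phosphorylated serines is shown for that reason, beside the same stretch of *Pdha2*, the testis-expressed copy of *Pdha1* without introns. Capitals mark the serine codons, and both lines run 5′ to 3′ on the coding strand, with sequences from GENCODE vM21 transcripts.
*Pdha1*: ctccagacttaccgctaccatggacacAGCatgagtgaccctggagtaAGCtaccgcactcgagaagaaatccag
*Pdha2*: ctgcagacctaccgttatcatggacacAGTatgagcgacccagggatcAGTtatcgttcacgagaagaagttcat
The *Pdha1* stretch spans 75 of 1173 coding bases and the junction of exons 9 and 10 of 11, on the minus strand of GRCm38 at chrX:160126194-160126243 and chrX:160124603-160124627. The *Pdha2* stretch differs from it at 18 of the 75 bases, and the serine codons are present in both.

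The guides of the *Kdm6a* deletions are shown because they define the exonic and promoter clones. Each is given 5′ to 3′ as designed by the study, with the PAM (the motif next to the target that Cas9 needs) in capitals. Coordinates are on mm10, span the 20 bases before the PAM and come without a strand.
ΔE Left, chrX:18163390-18163409: gaaacctcacgaacccgaaaAGG
ΔE Right, chrX:18208733-18208752: tagcattatctgcataccagAGG
ΔP Left, chrX:18160528-18160547: ggacactgcatgtttgatggAGG
ΔP Right, chrX:18164295-18164314: agctacatactccaaaggagAGG
The ΔE guides lie 45.3 kb apart and the ΔP guides 3.77 kb apart. *Kdm6a*, the targeted gene, was at 49.7 and 51.2 TPM (fragments of each gene per base of transcript, scaled to the same total in every sample, computed here) in BC male wt. It was at 11.6 TPM in ΔE1, 13.5 in ΔE3 and 0.0440 in ΔP4, against 50.9 and 51.6 TPM in CB wt, 2.07 in ΔE2.5, 7.27 in ΔE2.7 and 0.0364 in ΔP2.1. The value of an exonic clone includes fragments from exons that its deletion leaves.

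Between 49975599 and 89070402 fragments were counted per sample. The 10 ES cell markers (*Pou5f1*, *Nanog* and others) were all above 1 TPM in every group and summed to between 6823 and 11025 TPM in male samples and to 17023 and 18227 TPM in the female ones. The 10 fibroblast markers summed to 168 and 169 TPM in BC wt, 227 in ΔE1 and 34.7 in ΔE3, but to 2424 and 2492 TPM in CB wt, 660 and 1214 in the CB exonic clones and 2648 in ΔP2.1, mostly from *Tagln* and *Acta2*. Of other cell types, the summed markers of primitive endoderm were between 15.8 and 53.5 TPM, of trophoblast between 45.9 and 114 TPM and of neural cells between 81.5 and 239 TPM. In bulk RNA, fewer cells of a type and less RNA per cell cannot be told apart.

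*Pdha1* (ENSMUSG00000031299, chrX:160122209-160138413, minus strand) was one of the most abundant mRNAs of wt cells. It was at 334 and 359 TPM in BC wt, at the 96.4th percentile of the 13050 genes above 1 TPM there. The level was 0.216 TPM in ΔE1 and 0.725 TPM in ΔE3, which is 20 and 63.7 fragments against 28839 and 32548 in wt, or 0.136% of the wt mean. In ΔP4, the BC clone that keeps the gene, it was 383 TPM, above both wt replicates. The other samples held 477 and 453 TPM (BC female wt), 338 and 340 (CB wt), 287 and 310 (CB exonic KO) and 275 (ΔP2.1). By group mean the order was BC female wt, ΔP4, BC wt, CB wt, CB exonic KO, ΔP2.1 and BC exonic KO, and among neighbors in this order only BC wt and CB wt overlapped. On both sides of the deleted interval *Eif1ax* was at 91.7% and *Phka2* at 134% of the wt mean in the exonic clones. Within it *Map3k15*, which overlaps the end of *Pdha1* on the opposite strand, was at 0.254% and *Sh3kbp1* at 11.5%. *Pdha2* was near 0 in these cells, at 0.379 and 0.373 TPM in BC wt and 0.367 and 0.303 TPM in ΔE1 and ΔE3.

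**Figure D1:**
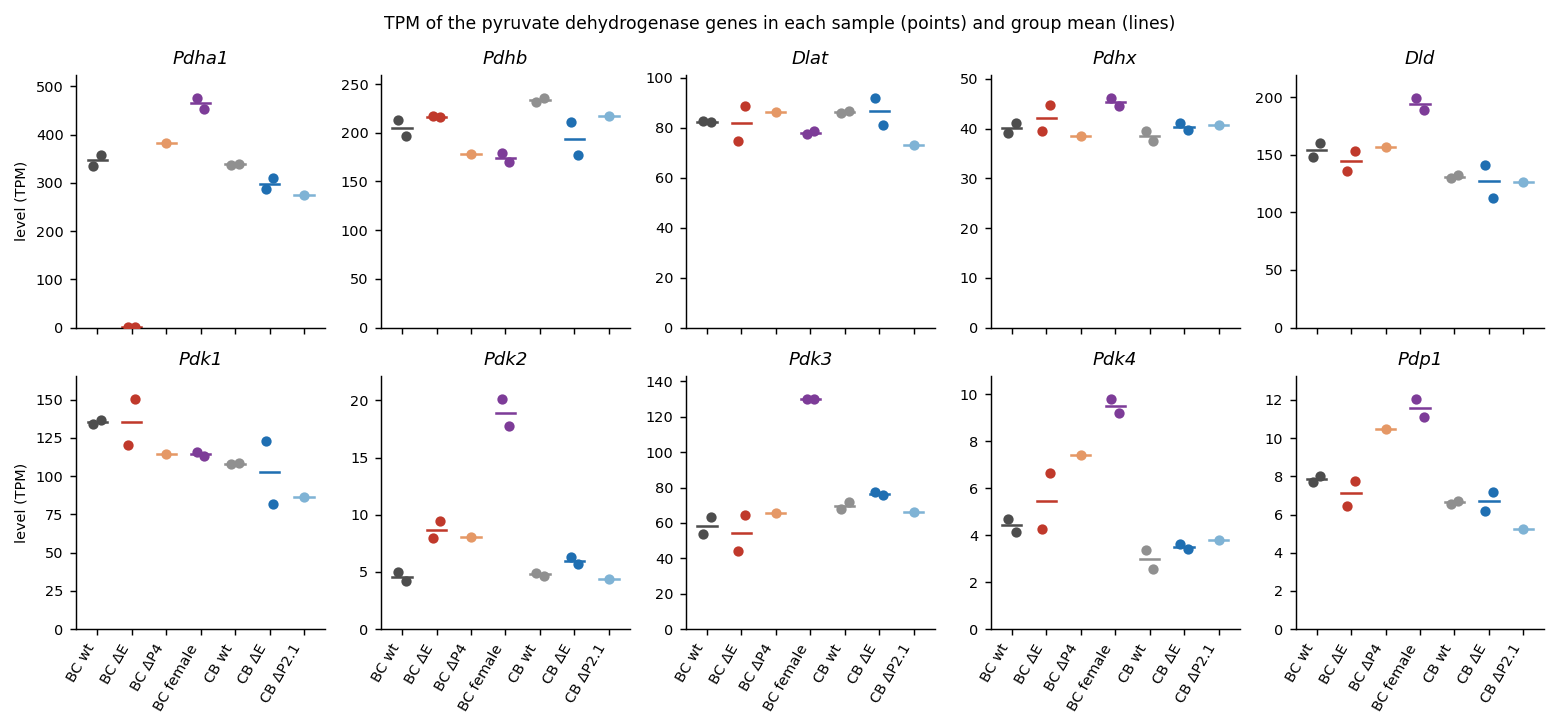
Level of each of the 10 genes in TPM (vertical axis, from 0) in the 12 samples, with 1 point per sample and a line at the mean of each group on the horizontal axis. *Pdha1* is near 0 in the 2 BC ΔE clones alone, and *Pdk2* lies between 7.94 and 9.44 TPM in the 3 BC KO clones against 4.20 and 4.97 in BC wt. By group mean *Pdk2*, *Pdk3* and *Pdk4* are highest in BC female cells, as are *Pdha1*, *Pdhx*, *Dld* and *Pdp1*.

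None of the other subunit genes was called in the exonic BC clones. *Pdhb* (chr14:8165996-8173025), whose product pairs with that of *Pdha1* in E1, was at 213 and 197 TPM in BC wt and at 218 and 216 TPM in ΔE1 and ΔE3. *Dlat* (chr9:50634633-50659780) was at 82.7 and 82.1 TPM in wt and at 74.7 and 88.8 in the clones, which fell on either side of wt. *Pdhx* (chr2:103021075-103073513) was at 39.2 and 41.1 TPM in wt and at 39.5 and 44.7 in the clones. *Dld* (chr12:31331277-31351453) was at 148 and 160 TPM in wt and at 136 and 153 in the clones. The test was edgeR's quasi-likelihood test, and a call needed an adjusted p under 0.05 and at least 1.5-fold. The log2 fold change of exonic KO against wt was 0.06 for *Pdhb* (95% interval -0.14 to 0.27, adjusted p = 0.721). For *Dlat* it was -0.03 (-0.25 to 0.19, adjusted p = 0.899), for *Pdhx* 0.05 (-0.14 to 0.25, adjusted p = 0.754) and for *Dld* -0.10 (-0.36 to 0.15, adjusted p = 0.626). Every one of these intervals lies inside a 1.5-fold change in either direction. The ratio of *Pdhb* to *Pdha1* TPM, 0.638 and 0.550 in BC wt, was 1006 in ΔE1 and 298 in ΔE3, where its denominator was near 0.

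Among the kinases, *Pdk2* rose in the exonic BC clones and the other 3 did not pass the test. *Pdk2* (chr11:95026258-95041354), a widely expressed kinase, was at 4.97 and 4.20 TPM in BC wt and at 7.94 and 9.44 TPM in ΔE1 and ΔE3, and the groups did not overlap. ΔP4, which keeps *Pdha1*, was at 8.05 TPM. The value rests on 338 and 301 fragments in wt and on 579 and 654 in the clones. The log2 fold change was 0.91 (standard error 0.15, 95% interval 0.56 to 1.25, 1.88-fold, adjusted p = 0.0107 in edgeR). The ES cell marker sum was also higher in ΔE1 and ΔE3, at 11025 and 10966 TPM against 9568 and 8320 in wt, but not in ΔP4, at 8108 TPM. The part of this sum in the *Pdk2* value was not tested. *Pdk1* (chr2:71873224-71903858), the most abundant kinase mRNA here and a known target of hypoxia-inducible factor (HIF), was at 134 and 137 TPM in wt and at 120 and 150 in the clones (log2 fold change -0.02, interval -0.41 to 0.38, adjusted p = 0.967). *Pdk3* (chrX:93764607-93832201), X-linked like *Pdha1*, was at 53.6 and 63.3 TPM in wt and at 44.1 and 64.4 in the clones (-0.12, interval -0.49 to 0.25, adjusted p = 0.70). *Pdk4* (chr6:5483351-5496309), the kinase known to rise in fasting, was at 4.68 and 4.14 TPM in wt and at 4.26 and 6.63 in the clones (0.29, interval -0.21 to 0.78, adjusted p = 0.458).

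In all, 1 of the 9 tested genes was called in exonic KO against wt in BC, where 5.27% of the 14662 tested genes were called. The median absolute log2 change was 0.10 over the 9 genes and 0.19 over all tested genes. The call of *Pdk2* depends on how the spread is estimated: from the 4 samples compared alone the log2 change was 0.91 but the adjusted p was 0.128, and without wt replicate 1 or 2 the adjusted p was 0.0605 or 0.111. Without ΔE1 or ΔE3, which leaves a single clone assumed to vary like the other groups, the call held at log2 changes of 1.03 and 0.77.

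**Figure D2:**
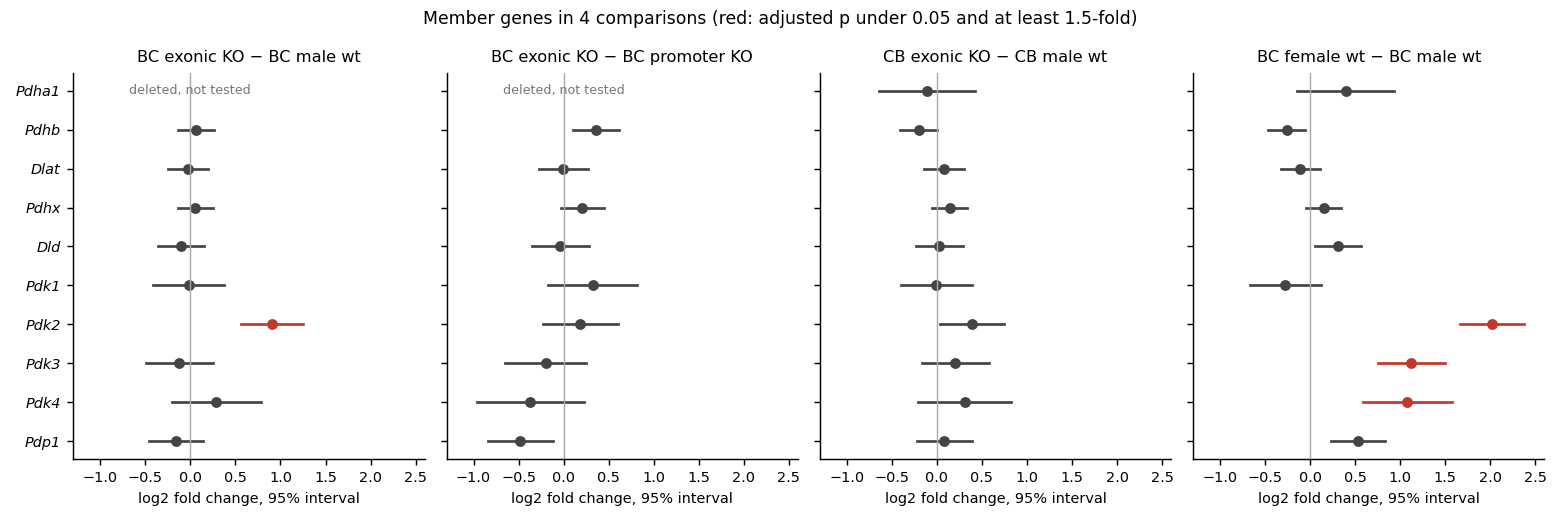
Log2 fold change (horizontal axis) with 95% interval for each gene in 4 comparisons, from the edgeR fit over 12 samples, with called genes in red. *Pdk2* is called in BC exonic KO at 0.91, no gene is called against ΔP4 or in CB, and *Pdk2*, *Pdk3* and *Pdk4* are called in BC female wt at 2.02, 1.12 and 1.08.

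*Pdp1* (chr4:11958184-11966452), the phosphatase subunit that reactivates E1, was at 7.71 and 8.0 TPM in BC wt and at 6.43 and 7.78 in the exonic clones. Its log2 fold change of -0.16 (interval -0.46 to 0.14, adjusted p = 0.501) did not pass the test. Of the accessory genes, the second phosphatase *Pdp2* was at 13.5 and 11.3 TPM in wt and at 10.1 and 6.72 in the clones (-0.57, adjusted p = 0.104). *Pdpr*, a regulatory subunit of the phosphatase, was at 16.2 and 13.9 TPM in wt and at 11.7 and 11.1 in the clones (-0.42, adjusted p = 0.0874). Both lie on chromosome 8, whose tested genes had a median log2 change of -0.49 in this comparison, against medians between -0.04 and 0.06 on the chromosomes of the 9 tested members. The part of chromosome 8 in these values was not tested.

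ΔP4 lacks *Kdm6a* but keeps *Pdha1*, so exonic against promoter KO in BC sets clones with and without *Pdha1* side by side. These clones also differ at *Map3k15* and *Sh3kbp1*, and the tested genes of chromosome 8 had a median log2 change of -0.49 here. None of the 9 tested genes was called, where 4.14% of 14662 genes were called. 2 of the 9 had an unadjusted p under 0.05 in edgeR, as did 25.4% of all tested genes. *Pdk2* was at 8.05 TPM in ΔP4, between ΔE1 and ΔE3, and the difference was 0.19 (interval -0.23 to 0.61, adjusted p = 0.569). *Pdhb* was at 178 TPM in ΔP4, below both exonic clones (0.36, interval 0.11 to 0.61, adjusted p = 0.0875). *Pdp1* was at 10.5 TPM in ΔP4, above both exonic clones and both wt replicates (-0.48, interval -0.84 to -0.12, adjusted p = 0.104), and *Pdk4* was at 7.42 TPM there (-0.37, adjusted p = 0.414). Of the rest, *Pdk1* (0.32, adjusted p = 0.388), *Pdhx* (0.21, adjusted p = 0.264), *Pdk3* (-0.20, adjusted p = 0.574), *Dld* (-0.04, adjusted p = 0.894) and *Dlat* (-0.00, adjusted p = 0.994) were not called. Without ΔE3, *Pdp1* (-0.61, adjusted p = 0.0337) and *Pdk4* (-0.71, adjusted p = 0.0483) were called, but this sets 1 clone against 1, with a spread taken wholly from the other groups. DESeq2 gave *Pdhb* an adjusted p of 0.0333 at 0.37, under the 1.5-fold needed. With a single promoter clone, a difference between the deletions and one between clones cannot be told apart.

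The exonic CB clones lost *Kdm6a* with *Pdha1* in place. None of the 10 genes was called there, where 7.88% of 14665 genes were called. *Pdk2* was at 4.93 and 4.67 TPM in CB wt and at 6.26 and 5.68 in ΔE2.5 and ΔE2.7, without overlap, and at 4.40 in ΔP2.1. Its log2 change of 0.39 (interval 0.03 to 0.74, unadjusted p = 0.0357, adjusted p = 0.129 in edgeR) was the only one of the 10 with an unadjusted p under 0.05, beside 31.3% of all tested genes. *Pdhb* was at 231 and 236 TPM in wt and at 211 and 177 in the clones (-0.20, adjusted p = 0.167). *Pdk1* spread from 81.6 TPM in ΔE2.7 to 123 in ΔE2.5 around a wt level of 108 in both replicates. *Pdha1* was at 287 and 310 TPM in the exonic clones and 275 in ΔP2.1, all below the wt values of 338 and 340. Its log2 change in the exonic clones was -0.11 (standard error 0.24, adjusted p = 0.784) in the 12-sample fit, whose spread at *Pdha1* includes ΔE1 and ΔE3, and -0.10 (standard error 0.066, adjusted p = 0.341) over the 4 samples compared. *Pdk4* (0.31), *Pdk3* (0.20), *Pdhx* (0.14), *Pdp1* (0.08), *Dlat* (0.08), *Dld* (0.02) and *Pdk1* (-0.01) were not called, with adjusted p-values from 0.299 for *Pdhx* to 0.984 for *Pdk1*. The fibroblast marker sums given above differed between these wt and KO samples, and their part in these values was not tested.

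The difference of the exonic KO effect between the crosses was tested directly, although the cross and the loss of *Pdha1* cannot be told apart in it. None of 9 genes was called, where 9.62% of 14662 genes were called. The largest difference was that of *Pdk2*, 0.52 (interval 0.03 to 1.01, unadjusted p = 0.0409, adjusted p = 0.151 in edgeR), followed by *Pdk3* at -0.33 (adjusted p = 0.389) and *Pdhb* at 0.26 (adjusted p = 0.206). The others lay between -0.24 for *Pdp1* (adjusted p = 0.431) and -0.01 for *Pdk1* (adjusted p = 0.984). In this comparison 29.5% of all tested genes had an unadjusted p under 0.05, and *Pdk2* was the only such member. Without ΔE3, which leaves ΔE1 as the single exonic clone in BC, *Pdk3* was called at -0.63 (adjusted p = 0.0204).

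With the 3 KO clones of a cross as a single group, edgeR called none of 9 genes in BC, where 0.029% of 13802 genes were called, and none of 10 in CB, where 0% of 13795 genes were called. At an unadjusted p under 0.05 there were 1523 genes in BC, among them *Pdk2* and no other member, and 2832 in CB with no member. DESeq2 called 260 and 494 genes. *Pdk2* was at 8.48 ± 0.834 TPM in the BC KO clones (SD, n = 3) and at 4.59 ± 0.541 in wt (SD, n = 2), with a log2 change of 0.85 (interval 0.35 to 1.34, adjusted p = 0.335 in edgeR, 0.0122 in DESeq2, where it was called). In CB its log2 change was 0.26 (interval -0.26 to 0.78, adjusted p = 0.502). The other 8 genes in BC lay between -0.12 for *Pdk1* and 0.42 for *Pdk4*, and the other 9 in CB between -0.14 for *Pdha1* and 0.36 for *Pdk4*.

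The kinases differ in abundance, which fixes how far *Pdk2* moves their sum. *Pdk1* gave between 65.1% and 68.1% of the summed kinase TPM in BC wt and the exonic clones, and *Pdk2* between 2.02% and 2.52% in wt, 4.50% in ΔE1, 4.09% in ΔE3 and 4.12% in ΔP4. The sum was 198 and 209 TPM in BC wt and 176 and 231 TPM in ΔE1 and ΔE3, which fell on either side of wt.

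**Figure D3:**
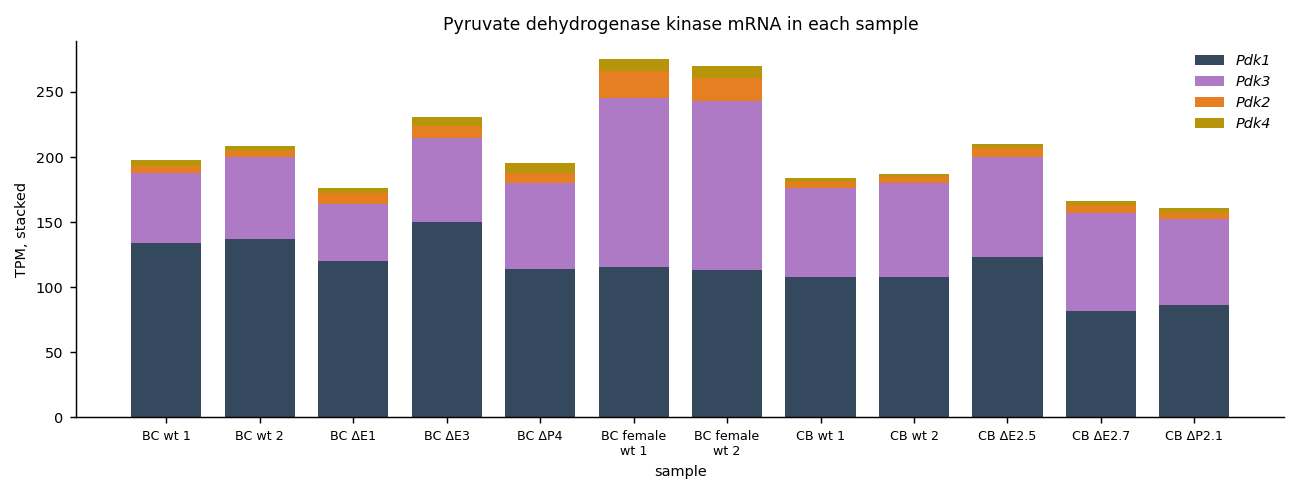
Summed TPM of the 4 pyruvate dehydrogenase kinase genes (vertical axis, stacked by gene) in each of the 12 samples (horizontal axis). *Pdk1* and *Pdk3* make up most of every bar, and the 2 BC female bars, at 276 and 270 TPM, are the tallest and hold more *Pdk3* than *Pdk1*.

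Female BC wt cells had more of 3 kinase mRNAs than male BC wt cells, a comparison in which sex and cell line cannot be told apart. *Pdk2* was at 20.1 and 17.8 TPM, against 4.97 and 4.20 in males (log2 2.02, standard error 0.15, adjusted p = 2.42e-05). *Pdk3* was at 130 TPM in both female replicates, against 53.6 and 63.3 (1.12, standard error 0.16, adjusted p = 0.000495). *Pdk4* was at 9.79 and 9.22 TPM, against 4.68 and 4.14 (1.08, standard error 0.22, adjusted p = 0.00278). No female value overlapped a male one for these genes, but the same held for every other member, called or not. The share of all genes without overlap was not counted. In this comparison 41.4% of 14665 genes were called, so 3 called of 10 is no more than the background. Of X-linked genes, which females carry in 2 copies, the tested ones had a median log2 change of 0.84. *Pdk1* was not called, at 116 and 113 TPM (-0.28, interval -0.67 to 0.12, adjusted p = 0.196). Neither were *Pdhx*, at 46.3 and 44.6 TPM (0.15, adjusted p = 0.16), and *Dlat*, at 77.5 and 78.6 TPM (-0.11, adjusted p = 0.361). *Pdp1* at 12 and 11.1 TPM (0.53, adjusted p = 0.00769), *Dld* at 200 and 189 (0.31, adjusted p = 0.0429) and *Pdhb* at 179 and 170 (-0.26, adjusted p = 0.0317) had adjusted p-values under 0.05 but changes under 1.5-fold. *Dld* lies on chromosome 12, whose median was 0.42. *Pdha1* was 0.40 higher on the log2 scale (interval -0.14 to 0.93, adjusted p = 0.176). That fit includes the difference between ΔE1 and ΔE3 at *Pdha1* in its spread, and over the 4 samples compared alone the change was 0.38 with an adjusted p of 0.00071, still under 1.5-fold. The ES cell marker sum was also higher in the female samples (values above), and its part in these values was not tested.

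Fragments that hold a SNP tell the BL6 from the *cast* allele. In males, *Pdha1* and *Pdk3* came from the single maternal X, with BL6 shares between 99.5% and 100% in BC wt and ΔP4 and between 0% and 0.225% in CB. The few *Pdha1* fragments left in the exonic BC clones held 3 SNP fragments in ΔE1 and 12 in ΔE3, too few for a share. In the female replicates the BL6 share of *Pdk3* was 48.5% and 50.4%, but that of *Pdha1* was 68.6% (exact 95% interval 67.3% to 69.9%) and 66.8% (65.3% to 68.3%). The median over X-linked genes with at least 20 SNP fragments was 51.2% and 50.8%. A share above 70%, which *Pdha1* did not reach, was found for 8.51% and 8.87% of them. Intervals of shares cover counting error only.

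*Dlat* stood apart among the autosomal members. Its BL6 share was between 50.7% and 54.5% in the 5 male BC samples, but 2.97% and 3.54% in the female BC samples and between 1.15% and 2.30% in the 5 CB samples, while its level was between 73.2 and 92.1 TPM throughout. A share under 5% was found for 3.48% and 3.46% of autosomal genes in the female samples, for at most 0.396% in a male BC sample and for at most 1.54% in a CB sample. Of the 11 genes with enough SNP fragments within 500 kb of *Dlat*, 1 (*Plet1*) was also under 5% in the female and CB samples, and none was in male BC samples. Their median share was between 59.5% and 68.0% in male BC, 32.9% and 34.8% in the female and between 29.3% and 37.5% in CB.

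*Pdhb* and *Pdk4* also had other shares in the female line. *Pdhb* was between 47.5% and 52.5% BL6 in male BC, between 59.5% and 64.2% in CB, and 31.4% and 31.0% in the female samples. *Pdk4* was between 74.3% and 88.0% in all male samples, and 49.1% and 47.7% in the female ones, where its level was highest. The autosomal total itself was tilted, with a BL6 to *cast* ratio between 1.14 and 1.26 in males and of 0.837 and 0.835 in females. *Pdk2* held only 22 to 227 SNP fragments per sample, and its share was between 50% and 75%. The exact intervals of BC wt and KO samples overlapped, and a difference between their shares was not tested.

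**Figure D4:**
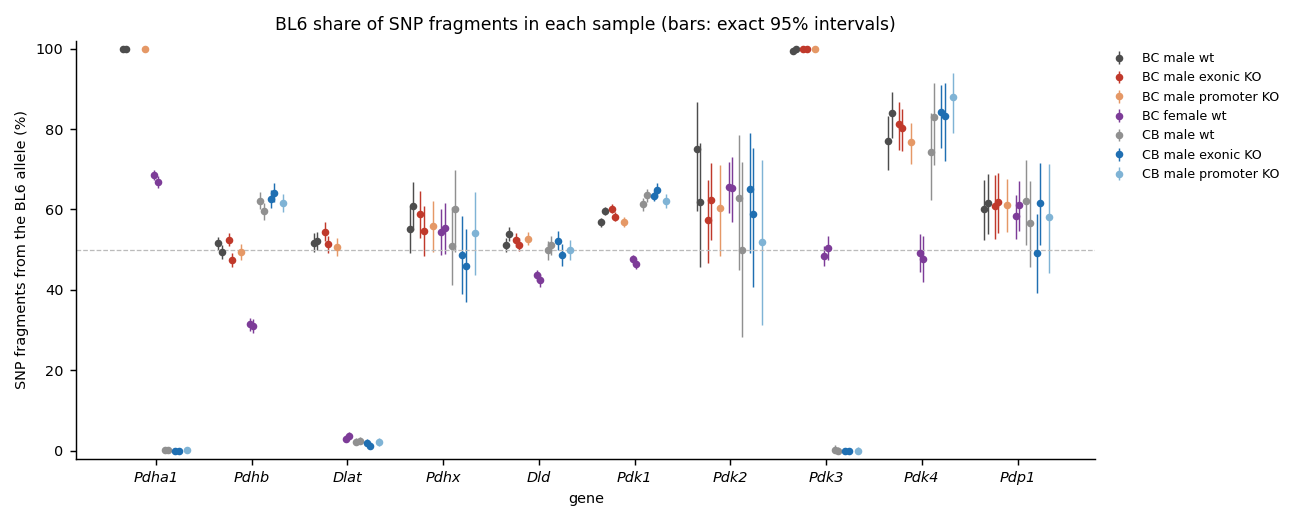
Share of SNP fragments from the BL6 allele in percent (vertical axis) for each gene, with 1 point per sample, exact 95% intervals as bars and colors for the 7 groups. *Pdha1* in the 2 BC exonic clones is left out for want of SNP fragments, and *Dlat* lies near 52% in male BC samples and under 4% in the female and CB samples.

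The genes around the complex were followed in 6 lists. Of the 20 genes for pyruvate entry, cofactors and accessory proteins, 1 was called in BC exonic KO against wt (5.27% of all genes were): *Slc16a3*, an exporter of lactate, fell from 65.1 and 58.4 TPM to 28.9 in ΔE1 and 9.85 in ΔE3 (log2 -1.69, adjusted p = 0.0337). It was at 47.3 TPM in ΔP4, and the call was lost without either wt replicate (adjusted p = 0.159 and 0.143). The median of the list was 0.06 against 0.01 over all genes. None of the 15 TCA cycle genes was called, and *Idh2* (0.56), *Sdhb* (0.17) and *Idh3b* (0.16) had the largest values. None of the 12 tested genes for other routes of pyruvate was called either, and their median was -0.0026. Among them *Pck2*, which makes phosphoenolpyruvate in mitochondria, went from 41.2 and 42.0 TPM to 54.6 in ΔE1 and 112 in ΔE3 (0.99, adjusted p = 0.0599), and DESeq2 called it (adjusted p = 0.00225). *Acss2*, which makes acetyl-CoA from acetate outside mitochondria, had a log2 change of 0.52 (adjusted p = 0.122), and *Pcx*, which turns pyruvate into oxaloacetate, one of 0.47 (adjusted p = 0.0161, under 1.5-fold). *Ldha*, the lactate dehydrogenase subunit that favours lactate, was lower, at 1392 and 1213 TPM against 1735 and 1784 in wt (-0.45, adjusted p = 0.0281, under 1.5-fold). Of 9 genes of other 2-oxoacid dehydrogenases, which share E3 or its mechanism with the complex, none was called. *Dbt*, the E2 of the branched-chain complex, was at 36.9 and 36.5 TPM in wt and at 52.8 and 56.1 in the clones (0.55, adjusted p = 0.00533, under 1.5-fold), *Bckdhb* changed by 0.36 and *Ogdhl* by 0.21.

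The list with most calls was that of HIF targets, glycolytic and other genes that HIF is known to induce together with *Pdk1*. In BC exonic KO against wt 3 of 16 (18.8%) fell and none rose, with a median of -0.37 against 0.01 over all genes, of which 5.27% were called. *Egln3*, an oxygen sensor, fell from 83.2 and 84.4 TPM to 51.6 and 51.0 (-0.72, adjusted p = 0.00157). *Ankrd37* fell from 34.7 and 38.1 to 11.2 and 5.81 TPM (-2.11, adjusted p = 0.00373), and *P4ha1*, a collagen prolyl hydroxylase, from 19.4 and 19.3 to 15.0 and 10.5 TPM (-0.62, adjusted p = 0.0460). *P4ha1* was not called without either wt replicate or without ΔE3 (adjusted p = 0.189, 0.204 and 0.0718), and the count without ΔE1 was 10 of 16, in a fit where calls over all genes rose from 773 to 2183. Of 11 tested regulators of kinase genes 1 (9.09%, beside the same 5.27%) fell, *Egln1*, the main oxygen sensor of HIF (-0.94, adjusted p = 0.00157). *Ankrd37* and *Egln1* lie on chromosome 8, with its median of -0.49. None of these calls was made with the spread of the 4 samples compared alone (adjusted p between 0.0976 and 0.22).

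Against ΔP4, *Bnip3* (-1.11), *Ankrd37* (-1.70), *P4ha1* (-0.97) and *Ero1l* (-0.80) were lower in the exonic clones, 4 of 16 HIF targets (25%, beside 4.14% of all genes), and *Egln3* was not called (-0.17, adjusted p = 0.232). Among the 11 regulators *Epas1* (1.54) and *Myc* (1.58) were higher in the exonic clones than in ΔP4, where they were below wt. *Myc* was at 65.3 TPM in ΔP4, 161 and 149 in wt and 173 and 197 in ΔE1 and ΔE3. *Epas1* was at 42.0 TPM in ΔP4, 97.5 and 81.7 in wt and 110 and 122 in ΔE1 and ΔE3, and neither gene was called in the exonic clones against wt. *Egln1* (-1.02) was lower, and *Iba57*, an iron-sulfur cluster protein, was higher (0.61). In exonic KO against wt in CB, *Egln3* rose (0.89) and *Pfkfb3* fell (-0.75), and the TCA cycle genes *Sdhc* (0.70) and *Fh1* (0.75) rose, both on chromosome 1 with a median of 0.48. No other gene of the 6 lists was called there, where 7.88% of all genes were. The effects differed between the crosses for *Egln3* (-1.62), *Ankrd37* (-2.10), *Pgk1* (-0.59), *Ldha* (-0.65), *Fh1* (-0.82), *Dbt* (0.75) and *Pcx* (0.59), where 9.62% of all genes were called. *Pgk1* was at 86.0 and 96.9 TPM in BC wt but at 4.71 and 4.38 in CB wt. Whether reads of *Pgk1* were lost in CB was not tested, so its value is uncertain. In the comparisons of all 3 KO clones with wt, edgeR called no gene of the lists in either cross.

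Female BC cells had more mRNA of most HIF targets than male BC cells: 14 of 16 were called higher and *Eno1* lower (-1.48), with a median of 0.93, where 41.4% of all genes were called. *Ndrg1* (2.69), *Bnip3* (2.39) and *Vegfa* (1.93) had the largest changes, whereas *Pdk1* was not called. The others were *P4ha1* (1.73), *Ddit4* (1.31), the X-linked *Pgk1* (1.24), *Egln3* (1.09), *Ero1l* (0.94), *Tpi1* (0.93), *Aldoa* (0.92), *Pfkfb3* (0.90), *Hk2* (0.86), *Slc2a1* (0.85) and *Ankrd37* (0.76). *Eno1* has a near-identical copy, *Eno1b*, and on the BL6 genome alone its change was -0.05 (adjusted p = 0.940), so its value is uncertain. Of the 20 entry and accessory genes 6 were higher and 4 lower. Higher were *Pdha2*, at 3.31 and 3.36 TPM (3.11), *Mpc1*, a subunit of the mitochondrial pyruvate carrier (1.55), *Slc16a3* (1.18), *Glrx5* (0.84), *Mecr* (0.74) and *Sirt4* (0.72). Among the lower ones were *Bola3* (-0.80), *Lipt1* (-0.79) and *Iba57* (-0.65). The dehydrogenase list had 5 of 9 genes higher (*Dhtkd1* 1.78, *Bckdha* 0.99, *Bckdhb* 0.95, *Ppm1k* 0.76 and *Dlst* 0.76) and the other routes 5 of 12 (*Acss2* 1.92, *Pck2* 1.65, *Pcx* 1.07, *Acss1* 0.96 and *Ldhb* 0.68). In the TCA cycle *Idh2* (1.81) and the X-linked *Idh3g* (1.15) were higher, 2 of 15. Of the 11 regulators *Foxo3* (1.61), *Egln1* (1.06) and *Esrra* (1.01) were higher, and *Myc* (-1.48) and *Epas1* (-0.82) lower. *Glrx5*, *Dlst* and *Egln3* lie on chromosome 12, with a median of 0.42 here, and *Lipt1* on chromosome 1, with -0.57. *Ankrd37* and *Egln1*, both higher, lie on chromosome 8, with a median of -0.45. The part of these chromosomes in the values was not tested.

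**Figure D5:**
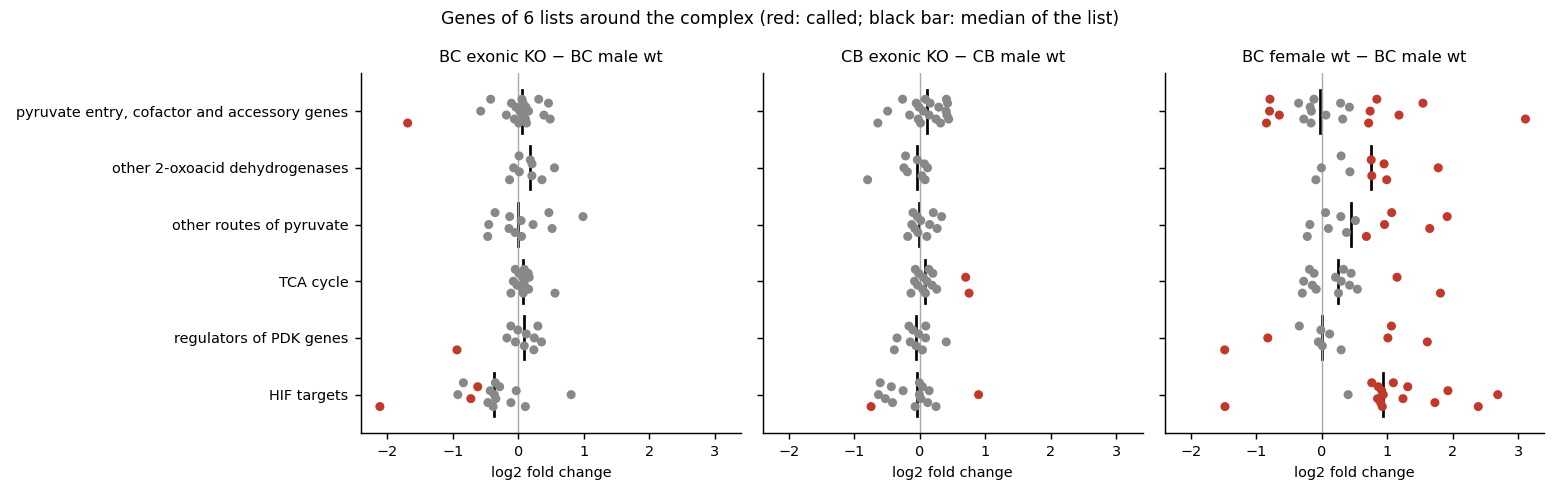
Log2 fold change (horizontal axis) of each tested gene of the 6 lists in 3 comparisons, with called genes in red and a black bar at the median of each list. HIF targets have a median of -0.37 in BC exonic KO and of 0.93 in BC female wt, and the TCA cycle list has 2 called genes in CB exonic KO, both on chromosome 1.

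The genes whose pattern over the 12 samples was most like that of *Pdha1* were *H19*, *Map3k15*, *Xlr3a*, *Plekha2* and *Lefty2*. Likeness was the root mean square difference of log2(TPM + 1), relative to male wt of the cross, over 13049 genes with at least 1 TPM in BC wt. It was 1.91 for *H19*, 1.94 for *Map3k15* and between 2.37 and 2.40 for the rest. The measure depends on the wt level, since a gene with a low level has less room to fall. *Map3k15* fell from 9.02 and 9.41 TPM in BC wt to 0 and 0.0469 in ΔE1 and ΔE3, yet ranked behind *H19*. *H19* was at 29.0 and 4.08 TPM in ΔE1 and ΔE3 against 168 and 153 in wt. The likeness did not hold in every sample. *H19* was at 815 TPM in ΔE2.7 against 270 and 255 in CB wt, and *Xlr3a* was at 0.139 TPM in ΔP4. Of 13050 genes, 8 were below 5% of wt in both exonic clones, with *Pdha1* and *Map3k15* among them.

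Some levels carry limits of the counting. Of the 75-base windows of the *Pdhb* transcript, the length of a read, 19.9% also occur in the pseudogene *Gm6123*, and its diploid count was between 78.6% and 90.1% of the count on the BL6 genome alone, against 95.2% to 97.9% over all genes. For *Pdk1* that ratio was between 88.9% and 92.7%. The library kit does not keep strand, so reads of *Pdha1* and *Map3k15* in their overlap cannot be told apart. Levels between genes were compared as TPM, which depends on the transcript length assumed.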

How the data were processed

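RNA-seq was done on 12 samples in 7 groups, taken from the labels. The authors deposited estimated counts of fragments per gene, not normalised, which need not be whole, for each sample: fragments on the BL6 genome, fragments mapped to either the BL6 (mm10) or the *cast* genome, and fragments holding a SNP of either allele. They aligned single-end reads with TopHat and Bowtie2 (2.2.5 per the submitters' processing notes) to mm10 and a pseudo-*cast* genome built from SNPs, and kept unique alignments. Reads that cover no SNP could map to either genome, so a gene whose alleles differ in mappability may lose reads. The gene annotation they used is not given in the sources used here.

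Counts mapped to either genome were rounded to whole numbers. The test was edgeR's quasi-likelihood F test (edgeR 4.0.16, R 4.3.3), with TMM factors and Benjamini-Hochberg adjustment over all genes above 1 TPM in at least 1 sample. One fit over 12 samples gave the contrasts of single groups, and fits over 5 samples gave each cross's KO clones against wt. A call needed an adjusted p under 0.05 and 1.5-fold. *Pdha1*, *Map3k15* and *Sh3kbp1* were not tested where the exonic BC clones, which lack them, were compared. TPM used GENCODE vM21 lengths (GRCm38, the assembly of mm10), with the median length of 2284 bases for 1036 genes that did not match. Shares of alleles have exact (Clopper-Pearson) 95% intervals and needed 20 SNP fragments. A chi-square per gene compared the 2 samples of a group with sampling noise. In wt its mean was above that noise, at 32.8 (BC male), 15.9 (BC female) and 26.8 (CB male). Its median was lower, at 2.79, 1.88 and 0.699, so a typical gene differed little between the CB wt replicates. The median was 14.4 in BC exonic KO and 7.27 in CB exonic KO. The tests were also run on simulated counts with the same spread in all genes and groups. The spread of the samples differs between groups, so that run cannot tell how far the calls depend on it. Alternatives were DESeq2 (1.42.0), its size factors, no filter, other sets of samples, each sample left out, ΔE1 and ΔE3 averaged, a replicate block and, added after seeing the data, the counts on the BL6 genome.

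The text names all 10 genes in every comparison, the called genes of 6 lists or, where a list had none in BC exonic KO against wt, the 3 with the largest change, and the 5 genes most like *Pdha1*. For the later comparisons lists without a called gene are given by their counts. One called list gene of the female comparison is not reported here. *Pdha2*, *Pdp2*, *Pdpr*, *Ldha* against BC wt, the genes beside *Pdha1* and genes given for contrast were named after their values were seen. The genes and lists were chosen with earlier results of these data known.

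The labels give same-numbered wt samples nothing in common but the number. The correlation of their deviations was 0.185 between male and female BC, 0.0502 between male BC and CB and 0.00103 between female BC and CB. Whether same-numbered BC samples share anything more was not tested.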

Additional observations from a re-analysis of the deposited data

How the results depend on the processing

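Of 668 values of the 10 genes under alternatives, in 66 pairs of gene and comparison, 614 kept their direction and side of the threshold, 3 lost a call, 4 gained one and 47 changed sign, the last at small, uncalled changes. Of the values of named list genes, 663 stayed on their side, 79 lost a call and 6 gained one. With only the samples compared, BC exonic KO against wt had 4 calls and 0 of the 10 genes called, and the difference between crosses had 827 calls. For all KO clones against wt, DESeq2 gave 260 calls in BC with 1 of the 10 genes and 494 in CB, and the fit over 12 samples gave 58 and 54. The cause of these differences was not tested.

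Leaving out 1 sample, calls ranged from 176 (without wt replicate 2, and 197 without replicate 1) to 2183 (without ΔE1) in BC exonic KO against wt, with 0 to 1 of the 10 genes. They ranged from 1237 to 1629 against ΔP4 (0 to 2 genes), from 253 to 1436 in CB exonic KO, from 190 to 2464 for the difference between crosses (0 to 1 genes), from 1 to 4 in BC KO and from 0 to 928 (without ΔP2.1) in CB KO.

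Changes of sign under leaving out a sample gave these ranges of log2 change. In BC exonic KO against wt they were -0.16 to 0.10 for *Dlat*, -0.044 to 0.15 for *Pdhx*, -0.20 to 0.14 for *Pdk1*, -0.43 to 0.13 for *Pdk3* and -0.070 to 0.58 for *Pdk4*, and for list genes -0.0073 to 0.33 for *Sdhb* and -0.0051 to 0.31 for *Idh3b*. Against ΔP4 they were -0.12 to 0.14 for *Dlat*, -0.12 to 0.070 for *Dld* and -0.49 to 0.075 for *Pdk3*. In CB exonic KO they were -0.0051 to 0.16 for *Dlat*, -0.13 to 0.17 for *Dld*, -0.32 to 0.25 for *Pdk1* and -0.036 to 0.20 for *Pdp1*. For the difference between crosses they were -0.24 to 0.022 for *Dlat*, -0.19 to 0.0045 for *Pdhx*, -0.28 to 0.030 for *Dld*, -0.27 to 0.30 for *Pdk1* and -0.38 to 0.27 for *Pdk4*. In BC KO they were -0.11 to 0.062 for *Pdhb*, -0.094 to 0.034 for *Dlat*, -0.10 to 0.053 for *Pdhx*, -0.18 to 0.10 for *Pdk3* and -0.16 to 0.16 for *Pdp1*. In CB KO they were -0.084 to 0.086 for *Dlat*, -0.058 to 0.094 for *Dld*, -0.29 to 0.018 for *Pdk1* and -0.15 to 0.10 for *Pdp1*.

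Other changes of sign were at values near 0. *Dlat* against ΔP4 was 0.0047 with DESeq2 size factors and in DESeq2, 0.0145 with no filter and 0.0014 with ΔE1 and ΔE3 averaged. *Pdk1* in CB exonic KO was 0.00060 with only the samples compared, and *Dlat* in CB KO was -0.0017 in the fit over 12 samples. With a replicate block, the female comparison had 6586 calls in place of 6064, and no call of the 10 genes changed. Depth limits *Pdk2*, *Pdk4* and *Pdp1* most, the members with the lowest levels, and allele shares of *Pdk2*.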
